A study of Saccharomyces cerevisiae with 167 samples.

Results

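The comparison described here is the mRNA of budding yeast cells that lack SNF2 against that of wild-type cells before any heat shock. It rests on 4 dual-colour arrays of the 167 in the series, the time 0 arrays of a heat shock time course, with 2 arrays for the wild type and 2 for the snf2 deletion. On each array poly(A) RNA of 1 strain, taken before the shock, was labelled with Cy5, and control RNA of unstressed wild-type cells was labelled with Cy3. The deposited values are log2 ratios of Cy5 to Cy3, so a strain difference (deletion minus wild type) takes the control RNA out. The deletion is the only allele the labels give, and neither the strain background nor the number of independent clones is stated. Separate cultures are not stated. Each expression p-value weighs a difference against the scatter of replicate arrays over the whole time course, with a share drawn from all probes. This scatter may be technical. A probe reads the abundance of a transcript in bulk RNA, so a change in each cell and a change in how many cells express the gene cannot be told apart.

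Snf2 is the ATPase of SWI/SNF, a complex that uses ATP to slide or evict nucleosomes at promoters, where it is recruited by activators. Its subunits were found through yeast mutants that could not ferment sucrose or could not switch mating type, and SUC2, PHO5, INO1, ADH2 and HO are among the classical genes that depend on it. SER3, a gene of serine synthesis, is known for the opposite behaviour, since SWI/SNF is needed to keep it repressed when serine is plentiful.

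The deleted gene was checked first. The SNF2 probe stood at 0.32 and 0.67 on the wild-type arrays and at -0.05 and -0.03 on the deletion arrays (log2 ratio to control RNA, each array centred on its median). The groups did not overlap, yet the difference of -0.53 ± 0.18 (standard error) did not pass the threshold (limma adjusted p = 0.137). The deletion arrays read SNF2 near the level of the control RNA, which came from wild-type cells. Later in the course the strain difference was 0.01 at 30 s, -0.73 at 60 s, -0.03 at 300 s and -0.86 at 900 s. By themselves these mRNA arrays do not show that the transcript was lost. The chromatin arrays of the time courses, whose H4 references were wild-type genomic DNA, gave a check on the DNA. There the SNF2 probe ranged from -0.12 to 0.42 over 20 wild-type H4 arrays and from -2.80 to -0.85 over 19 deletion H4 arrays, with no overlap. Of the neighbouring genes, YOR289W stood at 0.32 and 0.25 in the wild type and 0.91 and 1.04 in the deletion (adjusted p = 0.118), and the vacuolar transporter gene YPK9 on the other side differed by 0.06 ± 0.18 (adjusted p = 0.878).

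Of 6262 probes for open reading frames (ORFs) tested, 277 were lower in the deletion (4.42%) and 120 were higher (1.92%) at a Benjamini-Hochberg adjusted p under 0.05 from limma. Together they are 6.34% of the probes tested. Of these, 171 fell and 61 rose at least 2-fold. The wild-type and deletion arrays did not overlap at 3607 of the 6262 probes (57.6%), the 397 called among them, so a lack of overlap does not set a called probe apart. Wild-type time 0 RNA against the control RNA was itself not flat, with 627 probes higher (10.0%) and 28 lower (0.447%). Arrays were centred on all probes and not on ORF probes alone, and the ORF median of this contrast was 0.09. The part of the centring in the excess of higher probes was not tested. The median difference between strains over all ORF probes was -0.05 on the log2 scale. Replicate arrays correlated across all ORF probes at r = 0.682 in the wild type and 0.699 in the deletion. With 2 arrays a strain the counts depended on each of them. Without the first wild-type array 4 probes were called lower and 0 higher, and without the second 14 and 2. Without the first deletion array 107 were lower and 66 higher, and without the second 68 and 15.

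The 15 largest falls included YRO2 and HSP30, a pair of related membrane protein genes, and 3 genes of the cell wall list, YGP1, TIP1 and CWP1. YRO2, which encodes a plasma membrane protein related to Hsp30, stood at 0.29 and 0.02 on the wild-type arrays and at -3.97 and -4.05 on the deletion arrays. Its mRNA was 18.0-fold lower (log2 difference -4.17 ± 0.19, adjusted p = 0.000956). HSP30, its relative, which encodes a membrane protein that restrains the plasma membrane proton pump, went from -0.13 and -0.24 to -2.80 and -2.97, a fall of 6.50-fold. MRH1, another gene related to them, named after its values were seen, was not called, with -0.01 and -0.14 in the wild type and 0.73 and -0.68 in the deletion (adjusted p = 0.950). YGP1, a secreted glycoprotein gene, went from 0.26 and 0.32 to -2.81 and -3.16 (9.68-fold lower, adjusted p = 0.00157). TIP1, a cell wall mannoprotein gene, went from 0.56 and 0.44 to -2.53 and -2.87 (9.21-fold lower, adjusted p = 0.00157). CWP1, another cell wall mannoprotein gene, went from 0.16 and 0.58 to -2.12 and -2.10. In each of these surface protein genes the 2 deletion arrays lay close together and more than 4-fold below the wild type.

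The other large falls were in single genes of different roles. PHO3, an acid phosphatase gene that thiamine represses, went from 0.54 and 0.77 to -2.10 and -2.41 (7.50-fold lower). QDR2, a multidrug exporter gene, fell 5.69-fold, and TAT1, an amino acid permease gene, fell 5.56-fold. FIT2, which encodes a cell wall mannoprotein that retains iron carriers, went from 1.09 and 0.93 to -1.30 and -1.46 and so fell 5.23-fold. The cyclin gene CLB1 fell 5.02-fold, the glutathione peroxidase gene GPX2 4.81-fold and CYS4, which makes cystathionine from homocysteine, 4.45-fold. The remaining 3 of the 15 largest falls, YLR035C-A (-2.54 ± 0.24), YMR050C (-2.15 ± 0.16) and YAR009C (-2.12 ± 0.16), are ORFs without a symbol in the annotation.

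The 15 largest rises included 7 genes of the nitrogen list and 2 of the sulfur list described below. DAL80, which encodes a GATA-type repressor of nitrogen genes, stood at -0.91 and -0.60 in the wild type and at 1.43 and 1.52 in the deletion (4.70-fold higher, log2 difference 2.23 ± 0.18, adjusted p = 0.0024). GAP1, the general amino acid permease gene, went from -0.34 and -0.62 to 1.39 and 1.21 (3.43-fold higher, adjusted p = 0.00433). MET28, which encodes a factor that helps to activate sulfur genes, went from -0.31 and -0.31 to 1.41 and 1.81 (3.78-fold higher, adjusted p = 0.00385). All 3 genes lay below the control RNA in the wild type and above it in the deletion. MET2, the first gene of the homoserine branch to methionine, went from 0.71 and 0.48 to 2.23 and 2.26 (3.13-fold higher). SNA2, a small membrane protein gene, rose 3.70-fold, ICS3, a gene of unknown function, 3.44-fold, and AAC1, a mitochondrial ADP/ATP carrier gene, 3.33-fold. YNL276C, whose systematic number adjoins that of MET2 (YNL277W), rose 4.49-fold. YNL276C and YGR051C (3.89-fold) are probes of the array with no entry in the annotation used, and YFL068W (2.83-fold) has an entry but no symbol. The deletion arrays of YGR051C stood apart, at 1.48 and 2.54, as did those of AAC1, at 1.07 and 2.03.

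**Figure D1:**
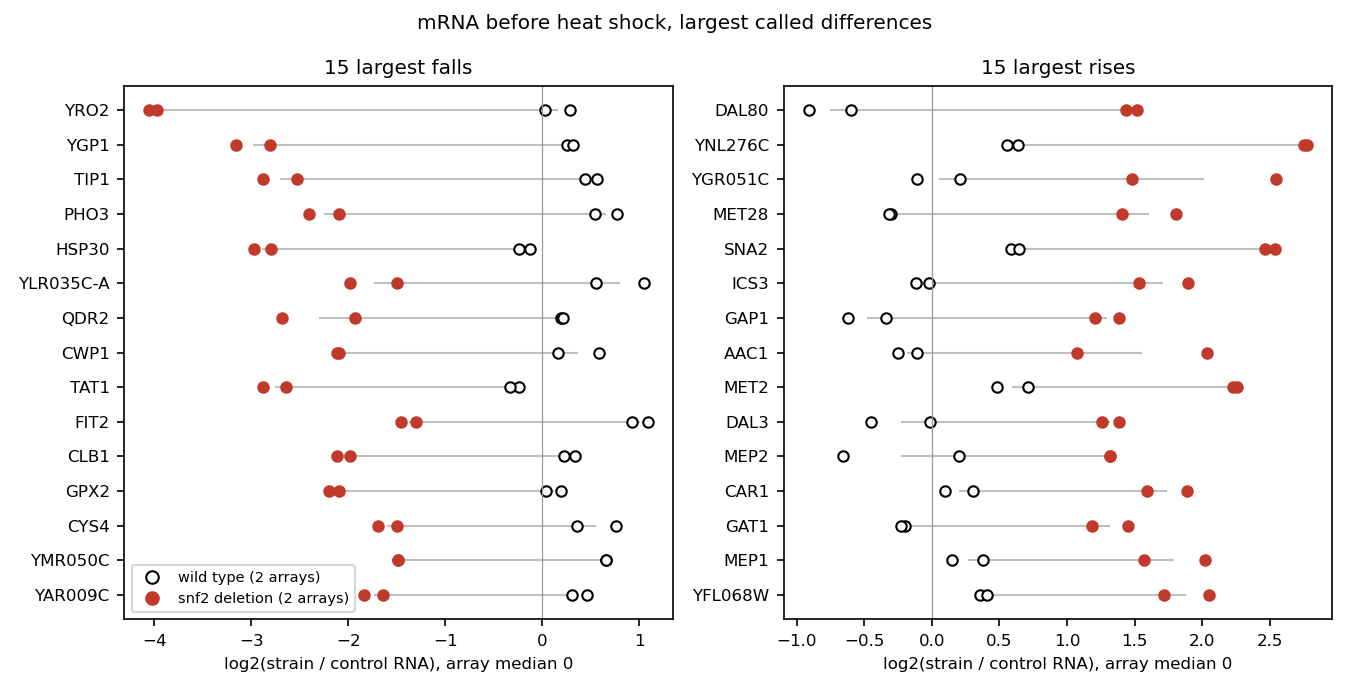
Log2 ratios to control RNA on each time 0 array (array median 0) for the 15 ORF probes with the largest called falls (left) and rises (right). Open circles are the 2 wild-type arrays, filled circles the 2 deletion arrays and grey lines join the strain means; YRO2 shows the widest gap, -4.17 on the log2 scale. The rows were chosen as the largest called differences.

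Gene groups are described by how many of their measured members were called, to be read against the 1.92% of all ORF probes called higher and the 4.42% called lower. Of 23 genes under nitrogen catabolite repression, the system that keeps the use of poor nitrogen sources off while good ones last, 10 rose and 0 fell. Besides DAL80 and GAP1 these included DAL3, an enzyme gene of allantoin breakdown (1.55 ± 0.23), and MEP2, an ammonium permease gene (1.55 ± 0.30). The median of the list was 0.46 and 20 of its members were above 0. MEP1, a second ammonium permease gene (1.53 ± 0.23), the arginase gene CAR1 (1.54 ± 0.26) and GAT1, which encodes a GATA-type activator (1.53 ± 0.19), are members too and stood among the 15 largest rises. Of its 10 calls, 0 and 1 were left without the first and the second wild-type array and 3 without either deletion array. The list kept its positive median when any 1 array was left out (0.40 to 0.61).

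Of 26 genes of methionine and sulfur metabolism, 8 rose and 2 fell, with a median of 0.36. Its rises numbered 0 without either wild-type array and 5 and 4 without the first and second deletion array. MET1, needed for the cofactor of sulfite reduction, went from -0.17 and -0.01 to 1.31 and 1.43. CYS4 (-2.15 ± 0.19), which lies on the route from homocysteine to cysteine, moved against MET2 (1.65 ± 0.16), which lies on the route towards homocysteine, and against the activator gene MET28 (1.92 ± 0.18). Of 22 genes of arginine, histidine and lysine synthesis, 3 rose and 0 fell. They were ARG56 (1.39 ± 0.19) and ARG4 (1.16 ± 0.15) of the arginine pathway and LYS1 (1.02 ± 0.16), which makes lysine in its last step, and 1 was left without the first deletion array and 0 without any other. Among 21 thiamine and pyridoxine genes, SNZ1 (1.17 ± 0.17) and SNZ3 (0.98 ± 0.20) of vitamin B6 synthesis rose and PHO3 fell. Both rises were lost without either wild-type array or the second deletion array. SER3 went from 0.16 and 0.07 to 1.54 and 1.38 (2.54-fold higher, adjusted p = 0.00939). Its paralog SER33 was at 1.14 ± 0.34 and did not pass (adjusted p = 0.103).

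Near the chromosome ends, 3 of 23 seripauperin genes, a family of anaerobically induced cell wall proteins, rose and 0 fell, with a list median of 0.36. PAU16 (0.93 ± 0.18), PAU3 (0.87 ± 0.17) and PAU18 (0.73 ± 0.16) were the 3. Of 7 helicase genes of the subtelomeric Y' element, YRF1-1 rose (0.98 ± 0.15), and the list median was 0.60. In both lists 0 genes passed whichever array was left out, with medians from 0.28 to 0.38 for the seripauperins and from 0.41 to 0.62 for the helicases. Members of both families are close in sequence, so their probes may share signal and are not independent readings. The COS family, another list of genes mostly near chromosome ends, had 0 of 12 genes called and a median of 0.19. With 1 array left out that median ran from 0.04 to 0.31.

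Among the groups that lost mRNA, glycolysis and fermentation had 8 of 24 genes lower and 0 higher, with a median of -0.36. Without the wild-type arrays in turn 0 and 1 were lower, and without the deletion arrays 5 and 2. GPM1, phosphoglycerate mutase, went from 0.37 and 0.06 to -1.76 and -1.93 (4.18-fold lower, adjusted p = 0.00308). The glyceraldehyde 3-phosphate dehydrogenase gene TDH1 (-1.87 ± 0.24) and the enolase genes ENO2 (-1.86 ± 0.24) and ENO1 (-1.53 ± 0.17) followed, and the alcohol dehydrogenase gene ADH1 fell by 1.03. TDH1 and its paralogs, and likewise ENO1 and ENO2, are near-identical copies, so these probes cannot be read as separate genes with certainty. Of 20 hexose transport genes 3 fell. The high-affinity glucose transporter genes HXT6 (-1.89 ± 0.21) and HXT7 (-1.77 ± 0.21), which are neighbours and nearly identical in sequence, and the low-affinity HXT3 (-0.97 ± 0.17) were the 3, of which 0 passed without either wild-type array and 2 without either deletion array.

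Of 25 cell wall genes, 6 fell and 0 rose, and the median of the list was -0.16. With 1 array left out the count was 2 and 3 (wild type) and 5 and 5 (deletion). Besides YGP1, TIP1 and CWP1, SPI1, a stress-induced wall protein gene, went from -0.24 and -0.32 to -2.43 and -1.97. Of 30 genes of the general stress response, the set that Msn2 and Msn4 turn on under many stresses, 9 fell and 0 rose, or 1 and 1 without the wild-type arrays in turn and 8 and 6 without the deletion arrays. YRO2, PGM2, HSP12 and SPI1 were the 4 that changed most. PGM2, a phosphoglucomutase gene, went from 0.69 and 0.74 to -1.14 and -1.50 (4.09-fold lower, adjusted p = 0.00382). HSP12, a small membrane-associated heat shock protein gene, went from 0.53 and 0.65 to -1.10 and -1.64 (3.88-fold lower, adjusted p = 0.00622). The list median was -0.33, and CTT1, the cytosolic catalase gene, was at -0.73 ± 0.42 with 1 deletion array at 0.00 and the other at -1.03 (adjusted p = 0.351). The chaperone list was at a median of -0.03 with 1 of 30 genes higher and 2 lower. HSP26 (-0.28 ± 0.30), HSP82 (-0.27 ± 0.20), HSP104 (-0.16 ± 0.27) and SSA4 (0.15 ± 0.25), all strongly heat-inducible chaperone genes, did not pass the threshold.

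Ribosomal protein genes shifted by small amounts across the list. Of 136 measured, 21 fell and 0 rose, 130 differences lay below 0, and the median was -0.57. RPS22A (-1.29 ± 0.21), RPL9A (-1.23 ± 0.17), RPL23B (-1.22 ± 0.23) and RPL23A (-1.20 ± 0.24) changed most. The median stayed between -0.59 and -0.54 whichever array was left out, although then 0 or 1 gene passed the threshold as lower, and 0 or 1 as higher. Many of these genes exist as near-identical pairs, whose probes can share signal. Of 35 translation factor genes 4 fell and 0 rose, with a median of -0.39. TEF4, a subunit of the elongation factor that recharges eEF1A, fell by 1.14, and CDC33, the cap-binding protein gene, by 1.00. Of these 4 calls 1 was left without the first deletion array and 0 without any other array. Ribosome biogenesis genes were at a median of -0.26, with 3 of 70 lower, or 0 whichever array was left out. Their share of lower calls was close to the 4.42% of all ORF probes.

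Of 20 genes expressed at the M/G1 transition or in daughter cells, 6 fell and 0 rose, with a median of -0.50, and 0 of them without either wild-type array and 3 and 2 without the deletion arrays. RME1, a repressor of meiosis (-1.36 ± 0.15), FAA3, a fatty acyl-CoA synthetase gene (-1.35 ± 0.19), AMN1, which ends mitotic exit signalling (-1.26 ± 0.16), and ASH1, the daughter-specific repressor of HO (-1.18 ± 0.21), fell. HO itself, the endonuclease of mating type switching, was at -0.48 ± 0.17 and did not pass (adjusted p = 0.161). Of 11 mating-type-specific genes, 3 fell. They were the alpha-specific genes SAG1, alpha-agglutinin (-1.68 ± 0.22), STE3, the a-factor receptor (-1.61 ± 0.27), and MF(ALPHA)2, alpha-factor (-1.40 ± 0.21), and 1 passed without the first deletion array and 0 without any other. MF(ALPHA)1, the main alpha-factor gene, stood at 0.50 and 0.36 in the wild type and -0.31 and -0.39 in the deletion (adjusted p = 0.128). Among the histone genes HTA1 (-0.99 ± 0.16) and HTA2 (-0.89 ± 0.17), which encode H2A, fell, and HTB1, the divergent partner of HTA1, was at -0.22 ± 0.22 (adjusted p = 0.594). Neither H2A gene passed with any 1 array left out.

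In the nutrient regulons, 3 of 17 phosphate genes and 4 of 26 iron genes fell and 0 rose, with medians of -0.50 and -0.22. Without the wild-type arrays in turn 0 and 0 phosphate genes and 0 and 1 iron genes passed as lower, and without the deletion arrays 2 and 1, and 3 and 2. PHO5, the repressible acid phosphatase gene, went from 0.53 and 0.48 to -1.30 and -1.54 (3.78-fold lower, adjusted p = 0.00385). PHM8 (-1.35 ± 0.27), a nucleotidase gene, and PHO12 (-0.95 ± 0.15), a close copy of PHO11, were the other 2. PHO84, the high-affinity phosphate transporter gene, was at -0.84 ± 0.21 (adjusted p = 0.0643). PHO5 and PHO3, both acid phosphatase genes, also moved together on arrays described below. They stood at -1.75 and -2.32 in stationary phase, -1.50 and -2.02 on heat shock, and -1.10 and -1.68 on the single deletion array at 30 °C. Shared signal between these 2 probes was not tested. The iron genes were FIT2, the siderophore transporter genes SIT1 (-1.69 ± 0.21) and ENB1 (-1.47 ± 0.15), and FET3, the ferroxidase of iron uptake (-0.73 ± 0.15), which was chosen for naming after its values were seen. In phospholipid synthesis 3 of 17 genes fell, or 0 without either wild-type array and 2 and 1 without the deletion arrays. CHO2, which methylates phosphatidylethanolamine (-1.90 ± 0.21), and INO1, inositol 3-phosphate synthase, were 2 of these. INO1 went from -0.21 and -0.03 to -1.21 and -1.34 (2.22-fold lower, adjusted p = 0.0118). ADH2, the glucose-repressed alcohol dehydrogenase gene, went from 0.37 and 0.14 to -0.54 and -0.70 (1.84-fold lower, adjusted p = 0.0303). The probes of ADH2 and ADH1 read alike, at -0.88 and -1.03 here and at -1.98 and -2.11 on the stationary phase arrays described below. On the single deletion array at 30 °C, also described below, they stood at 0.51 and 0.72. Whether the ADH2 probe takes up signal of ADH1 was not tested. SUC2, the invertase gene, stood at -0.01 and 0.25 in the wild type and at 0.25 and 0.78 in the deletion (0.40 ± 0.22, adjusted p = 0.327).

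Several lists had no called member, and their counts at an unadjusted p under 0.05 are to be read against 1472 of all 6262 ORF probes (23.5%). Of 12 SWI/SNF subunit genes limma called 0, with 2 at an unadjusted p under 0.05, and their median was -0.02. SNF12 had the widest range, with -0.62 and -0.13 in the wild type and 0.20 and 1.10 in the deletion (adjusted p = 0.114). Of 31 proteasome, 23 ergosterol and 33 meiosis genes 0 passed, with 9, 4 and 5 at an unadjusted p under 0.05. Of 8 genes used as auxotrophic markers in laboratory strains 0 passed, with 1 at an unadjusted p under 0.05 and differences from -0.28 to 0.64. ACT1, the actin gene, was at 0.21 ± 0.18 (adjusted p = 0.533).

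**Figure D2:**
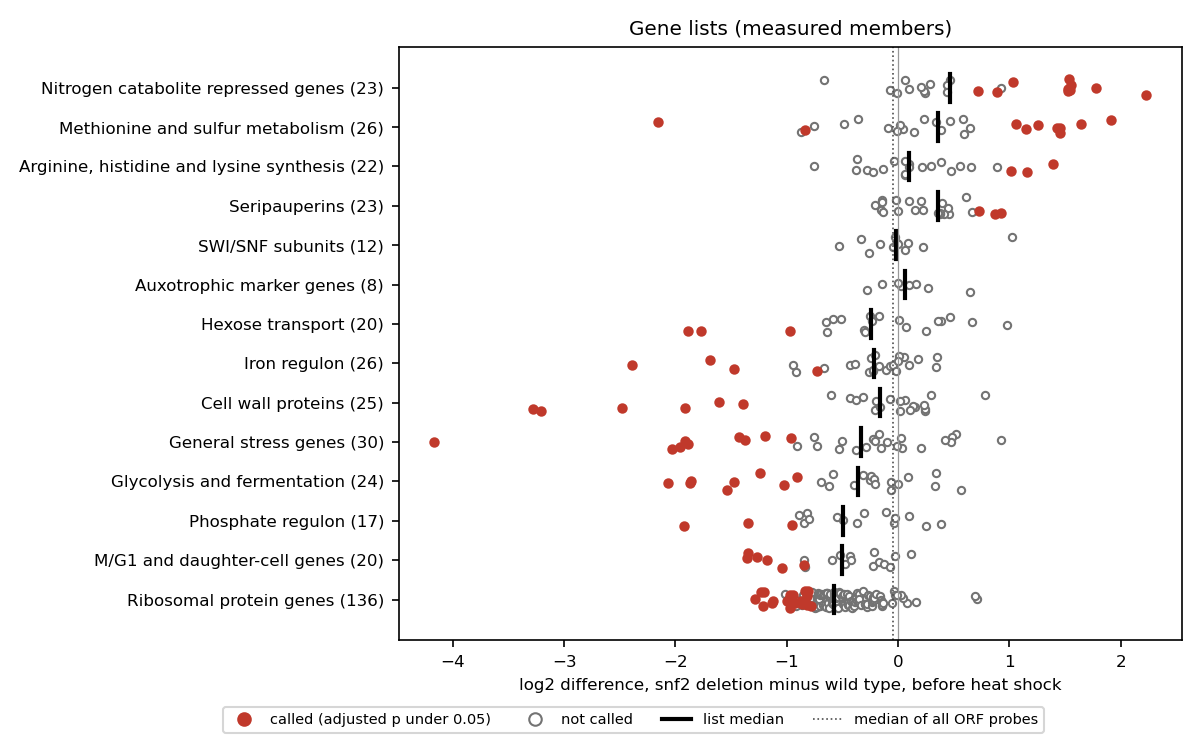
Log2 difference at time 0 (snf2 deletion minus wild type) of each measured member of 14 gene lists, with the number measured in brackets. Filled points passed the limma threshold, black bars are list medians and the dotted line is the median of all ORF probes (-0.05); the nitrogen list has its 10 called genes on the right, and the 21 called ribosomal protein genes lie on the left.

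Retrotransposon probes were among those that fell. The array holds probes named for the Ty families of yeast, mobile elements that copy themselves through RNA, and these were read from a fit over all 13020 probes, in which 286 were lower (2.20%) and 184 higher (1.41%). Of 12 Ty1 probes, which lie in 3 elements, 9 were lower and 0 higher, with a median difference of -2.08 and a range from -2.84 to -0.78. The median of these probes was 0.64 and 0.62 on the wild-type arrays and -1.01 and -1.54 on the deletion arrays. The 3 that did not pass carry the last letter, D, of their element. Of 2 Ty2 probes 1 fell (-1.13), and of the 12 probes of Ty3, Ty4 and Ty5 none was called, with family medians from -0.03 to 0.12. At 5 of these 12 the strains did not overlap, with the deletion higher by 0.20 to 0.58 (lowest adjusted p = 0.129), and at 7 they did. Elements of one family are near-identical, so these probes read a family and not single loci.

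**Figure D3:**
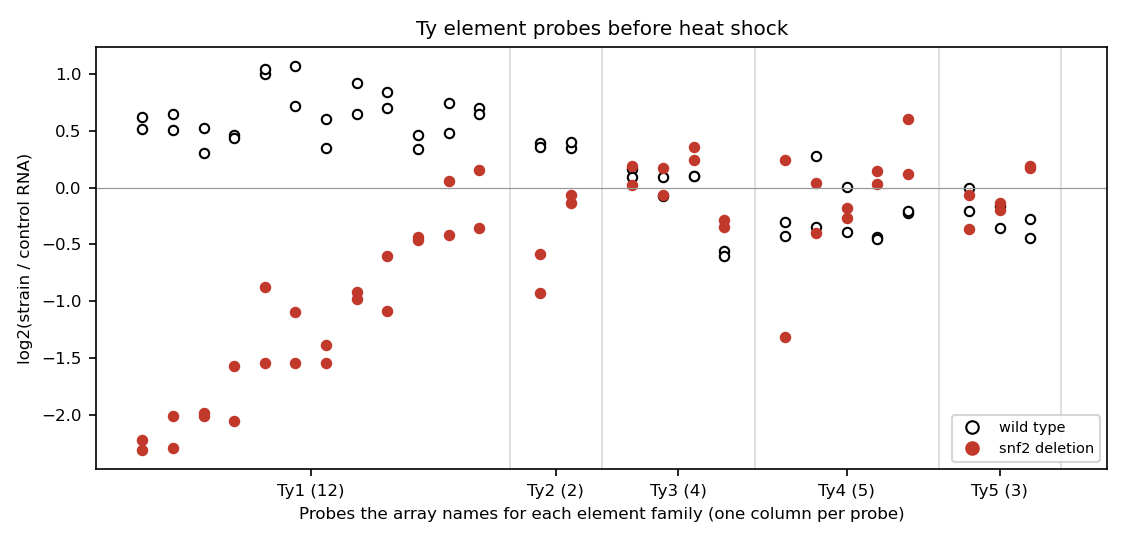
Log2 ratio to control RNA on each time 0 array for every probe that the array names after a Ty element, grouped by family with the number of probes in brackets, 1 column per probe. Open circles are wild type and filled circles the deletion; the deletion lies 0.78 to 2.84 lower in the Ty1 columns, and in the Ty3, Ty4 and Ty5 columns the differences run from -0.17 to 0.58, with 7 of 12 columns overlapping.

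Many ORFs without a symbol showed the same fall. Of the 255 annotated genes among the 277 lower probes, 65 had no symbol, and 51 of these belong to 4 classes of equal annotated length. These classes, chosen after the values were seen as the lengths with at least 4 lower members, had lengths of 1317, 1323, 5269 and 5314 bases, and 51 of 69 measured ORFs were lower and 0 higher, with a median difference of -1.13 and a range from -2.15 to 0.52. YMR050C, of the 15 largest falls, went from 0.65 and 0.66 to -1.49 and -1.49, and YAR009C from 0.46 and 0.30 to -1.64 and -1.84. The product of these ORFs is not given in the sources used here. ORFs of 1 length that move together may be copies, and then their number is not a number of independent genes.

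Some called genes were neighbours in the annotation. The longest run of neighbouring lower genes with symbols held 3 genes and occurred at ARB1, PHM8 and KRE29 and at TIP1, BAP2 and TAT1. PHO3 and PHO5 were neighbours as well. Of the 6 pairs of neighbours that both rose, ALD4 and GDH1, GUT2 and IMP21, PRB1 and SOM1, and PTR3 and MET10 had symbols for both genes. These pairs were chosen for naming after their values were seen. The probes YKL153W and YKL177W, whose numbers adjoin those of GPM1 (YKL152C) and STE3 (YKL178C), were lower as well, at -1.68 ± 0.16 and -2.08 ± 0.31. The sources used here do not give the strand that a probe reads, so overlapping neighbours cannot be told apart.

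The strain difference before the shock was set beside that at 30 s and 60 s of heat shock, from 4 further arrays, 1 per strain and time. At those times 354 ORF probes were lower (5.65%) and 116 higher (1.85%). Of the genes lower before the shock 231 were also lower then, which is 83.4% of the first list and 65.3% of the second. Of those higher, 66 were shared, 55.0% and 56.9%. All 277 lower genes kept their sign in the later arrays, against 53.6% of all ORF probes below 0, and 115 of the 120 higher genes kept theirs, against 46.4% above 0. YRO2 was at -4.28, YGP1 at -3.70 and GAP1 at 1.73 in the later arrays. Across 6262 probes the 2 sets of differences correlated at Pearson r = 0.74 and Spearman rho = 0.654, where probes are not independent and the fit shares 1 estimate of the spread. At 300 s, 266 of 277 lower and 100 of 120 higher genes had the same sign, and at 900 s 234 and 101.

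A separate array hybridised total RNA of a YOR290C (SNF2) deletion strain in mid-log growth at 30 °C against that of wild type, with no replicate. The SNF2 probe stood at -0.40 on it. Of the 120 genes that rose in the time 0 arrays, 106 (88.3%) were above 0, where 58.2% of all ORF probes were, and 45 were at least 2-fold higher, against 6.15% of all. Of the 277 that fell, 173 (62.5%) were below 0, where 41.7% of all were, 78 were at least 2-fold lower, against 3.34% of all, and 22 were at least 2-fold higher, against 6.15%. The ORFs of the 4 length classes were lower there too, 69 of 69 below 0 and 61 at least 2-fold lower, with a median of -2.81. Since 51 of these ORFs are among the 277, possible copies supply a large part of the 2-fold agreement of the lower genes. The 12 Ty1 probes lay between -3.14 and -2.49. On a second such array, with both strains after heat shock at 39 °C, 102 of the 120 (85.0%) were above 0, where 60.4% of all were, and 34 were at least 2-fold higher, against 7.97%. Of the 277, 147 (53.1%) were below 0, where 39.4% of all were, 89 were at least 2-fold lower, against 4.6%, and 33 were at least 2-fold higher, against 7.97%. Across 6262 probes the array at 30 °C and the time 0 difference correlated at Pearson r = 0.281 and Spearman rho = 0.214, and the array at 39 °C at 0.15 and 0.0366.

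Stress genes were among those that parted between the 2 experiments. HSP12 was at -1.96 in the time 0 difference and at 4.64 on the single array, YGP1 at -3.27 and 4.07, PGM2 at -2.03 and 2.62, and DDR2, a stress-induced gene of unknown function named after its values were seen, at -1.88 and 3.97. Of the 9 general stress genes that fell, 8 were above 0 on the single array, and the median of the 30 listed genes was -0.33 in the time 0 difference and 1.13 on the single array. Of the 22 lower genes that were at least 2-fold higher there, 7 were on the general stress list, and CWP1 (1.06) was among the others. The list medians on the single array were 0.02 for glycolysis, 0.28 for the cell wall and -0.31 for ribosomal proteins. YRO2 stayed low, at -0.82, and TIP1 at -2.40. Of the genes that rose, DAL80 (-1.01) and GDH1 (-1.02) were at least 2-fold lower on the single array, and the second was named after its values were seen. The single array used total RNA and the time course poly(A) RNA. MET17, one of the marker genes, was at -2.97 on the single array and at 0.64 ± 0.16 in the time 0 difference. The part of RNA type, strain background and growth in the disagreement was not tested.

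**Figure D4:**
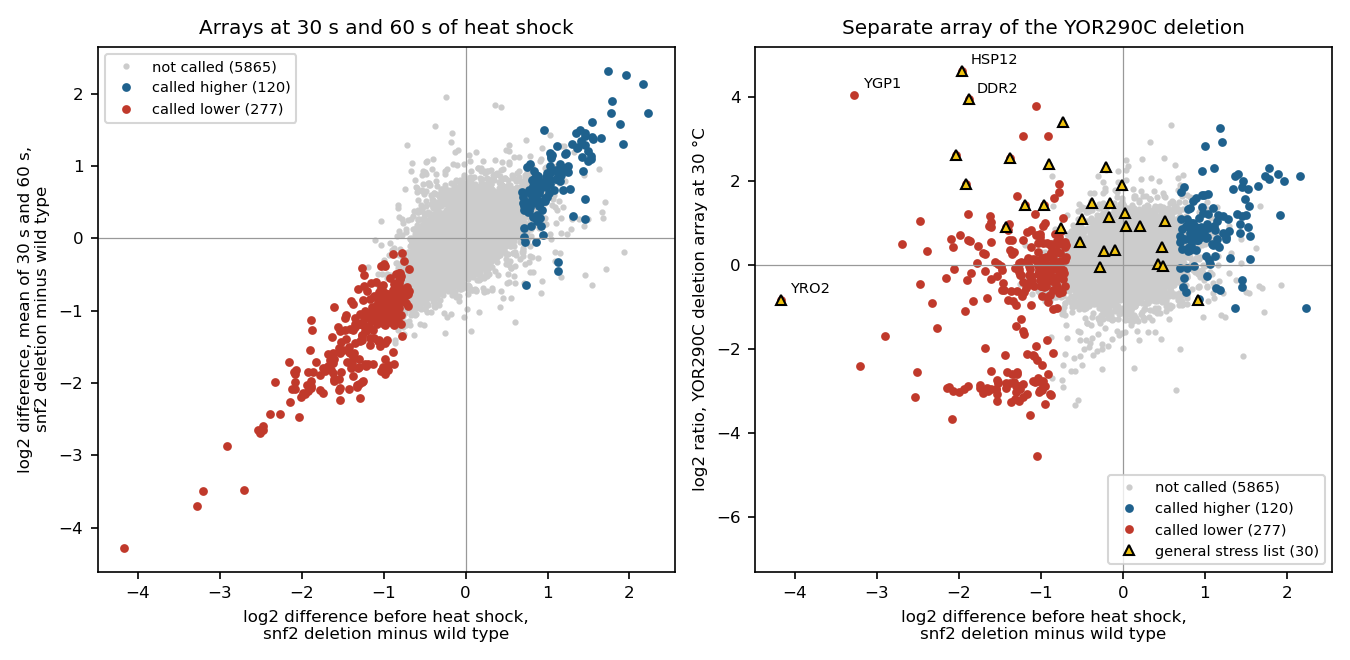
Log2 difference at time 0 (x axis, snf2 deletion minus wild type) of each of 6262 ORF probes against the mean difference at 30 s and 60 s of heat shock (left) and against the log2 ratio on the single YOR290C deletion array at 30 °C (right). Blue and red points are the 120 genes called higher and the 277 called lower at time 0; triangles are the 30 general stress genes, among which HSP12 and DDR2 lie low at time 0 and high on the single array.

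Chromatin of unstressed cells was measured in the same 2 strains on other arrays, sets 2 and 3 of each strain. Of 13020 probes 0 differed in H4 occupancy by limma at an adjusted p under 0.05 (0.0%), and 284 (2.18%) had an unadjusted p under 0.05. Even the probe of the deleted gene SNF2 was not called in this H4 fit. It stood at 0.23 and -0.05 in the wild type and at -1.16 and -2.11 in the deletion (-1.73 ± 0.47). The absence of calls therefore cannot show that H4 was equal in the 2 strains. In acetylated H4, 123 probes were higher (0.945%) and 7 lower (0.0538%). The count without the second-set deletion array was 12 higher and 0 lower, and without the other arrays in turn between 40 and 52 higher and 0 and 43 lower. The split moved with the fit as well. Only the 4 arrays gave 6 higher and 3 lower, the set number as replicate block 131 and 173, and crossed set numbers, a pairing added after seeing the data, 318 and 585. Per the labels the acetylated H4 arrays of the wild type had wild-type genomic DNA as reference and those of the deletion had DNA of the deletion strain. The SNF2 probe was at -1.42 and -1.46 in the wild type and at -2.58 and -2.88 in the deletion on these arrays, so the reference of the deletion arrays is uncertain.

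Promoter probes are intergenic probes placed at the start of a gene, and 4065 were used. At 201 promoter probes of genes that fell, H4 differed from that at all other promoters by a median of -0.19 and -0.17 on the wild-type arrays and -0.09 and -0.14 on the deletion arrays. The strain difference of 0.06 had an exact two-sided permutation p = 0.333, the smallest that 2 arrays against 2 allow. At 96 promoter probes of genes that rose it was -0.01 (exact permutation p = 1). For acetylated H4 the same difference was 0.24 at lower genes and 0.23 at higher genes (exact permutation p = 0.333 for both). Promoter probes with more acetylated H4 in the deletion were 12 of 201 at lower genes, 0 of 96 at higher genes and 51 of 4065 in all. These calls come from the fit that gave 123 higher and 7 lower, and were not counted under the other fits. They served TDH3 (1.97, with mRNA at -1.24), SED1 (1.87 and -1.61), TPS2 (1.60 and -1.37) and PGM2 (0.98 and -2.03), among others. These genes carried more acetylated H4 at the promoter and less mRNA. SED1, a cell wall protein gene, and the other 3 were chosen for naming after their values were seen.

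Snf2 binding in unstressed cells came from 3 arrays of Myc-tagged Snf2 chromatin against input. At the promoters of genes that fell it exceeded that at all other promoters by 0.10, 0.07 and 0.10 on the 3 arrays. At promoters of genes that rose the values were 0.06, 0.00 and 0.01. For the genes that fell, the excess was 0.07 with ORF probes in place of promoter probes, against a mean of 0.09 at promoters. It was thus not particular to promoters. HSP30 stood at 1.76, 1.92 and 0.26, PHO5 at 0.64, 1.52 and 0.73, and ADH1 at 0.93, 1.14 and 0.41, all above 0 on each array. YRO2, with 2 promoter probes, stood between -0.32 and 0.62, and HSP12 at -0.28, -0.04 and -0.23. Large falls in mRNA occurred both at promoters with high and at promoters with low Snf2 signal.

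Most genes that rose in the deletion were also above 0 in stationary phase. On 3 arrays of stationary against log-phase cells the 120 genes had medians of 0.73, 0.71 and 0.62, where all ORF probes had 0.03, 0.01 and -0.04, and 98 of the 120 were above 0. The 61 that rose at least 2-fold had medians of 1.37, 1.58 and 1.43. MET2, MET1 and MEP2 were at 4.79, 3.70 and 2.98 in the mean of these arrays, whereas CAR1 was at -2.08. On 3 heat shock arrays the 120 genes had medians of 0.16, 0.35 and 0.07. The 277 genes that fell had medians of 0.02, 0.17 and -0.49 in stationary phase and -0.02, 0.16 and -0.22 on heat shock, so the arrays of each stress differed in sign.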

How the data were processed

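The values are log2 ratios of the Cy5 to the Cy3 channel, as deposited by the authors. Dyes and RNA sources come from the labels, and no dyes were swapped. Their normalization, background correction and genome build are not stated in the labels or files. Each array was centred on its median (deposited medians of the 4 arrays lay between -0.0203 and 0.0172). In R 4.3.3, limma 3.58.1 (lmFit, eBayes) fitted 1 mean per strain and time over 13 time course arrays, so 3 residual and 3.83 prior degrees of freedom served each probe. P-values are two-sided and adjusted by Benjamini-Hochberg over all 6262 ORF probes with a value on both arrays of each strain. Chromatin was fitted likewise over all probes. Errors are standard errors of the difference, n = 2 arrays per strain. The precision is limited by this number, since arrays carry no depth. The fit was tested on simulated data. Genes were named through RefSeq's R64 table, which held 5777 of 6269 ORF probes. Promoter probes were placed by probe name between neighbouring genes. Named were the 15 largest rises and falls, the 4 members of a list with the largest change, and fixed genes. The members and the 42 lists were chosen with earlier results of these data known. Alternatives covered scaling, samples, probes, the eBayes setting, the set number as a block and arrays left out.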

Additional observations from a re-analysis of the deposited data

How the results depend on the processing

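The counts at time 0 (120 higher, 277 lower) became 205 and 595 with quantile normalization and 314 and 720 with the mean of time 0, 30 s and 60 s. With only the 4 arrays the counts were 192 and 385, and at least 2-fold changes numbered 61 and 171. Arrays scaled to 1 median absolute deviation gave 147 and 402, and a fit over all probes 87 and 217 ORF probes. Leaving out 1 array gave 0 to 66 higher and 4 to 107 lower. The counts at 30 s and 60 s were 187 higher and 484 lower with 8 arrays. Wild type against control RNA gave 627 higher (10.0%) and 28 lower (0.447%), and 1355 and 156 with arrays scaled to 1 median absolute deviation. That scaling gave 1 higher H4 probe, and leave-one-out 0 to 9 higher and 0 to 10 lower. Acetylated H4 (123 higher, 7 lower) gave 59 and 0 with that scaling, 6 and 3 with only the 4 arrays, and 12 to 52 and 0 to 43 with 1 array left out. The cause of these moves was not tested. Set numbers are not stated to pair the arrays, and same-numbered deviations correlated at 0.167 in expression, 0.289 in H4 and -0.104 in acetylated H4. With the number as replicate block on the 4 arrays, expression gave 115 higher and 271 lower, H4 0 and 0, and acetylated H4 131 and 173. With the set numbers crossed, a pairing added after seeing the data, acetylated H4 gave 318 and 585. Promoter summaries moved with genes of at least 2-fold change to 0.34 (acetylated H4, higher), 0.077 (Snf2, higher) and 0.10 (H4, lower), and with ORF probes to -0.054 (H4, higher), 0.35 (acetylated H4, higher), -0.070 (Snf2, higher) and 0.38 (acetylated H4, lower). The stationary mean of the higher genes was 1.46 with at least 2-fold genes. For the genes named at time 0, 2690 alternative values kept their side of the threshold, 285 lost it, 111 gained it and 0 reversed. The named genes include fixed genes and list members that were not called, and for these a kept side means that they stayed uncalled. The 2690 is therefore not a count of calls that held.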
